A study of Mus musculus with 12 samples.

Results

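Glycolysis splits glucose into pyruvate in the cytosol. The pyruvate dehydrogenase complex then turns pyruvate into acetyl-CoA inside the mitochondrion, where the citric acid cycle oxidises it and passes electrons to the respiratory chain. Lactate dehydrogenase offers the other exit from pyruvate, and gluconeogenesis runs part of the route backwards. In the colon, surface epithelial cells draw much of their energy from bacterial butyrate, which also enters the cycle as acetyl-CoA.

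The 38 genes described here encode enzymes of these routes. They were chosen by name, and each matched 1 of the 47632 genes in the deposited tables. They comprise 9 genes from hexokinase to triose phosphate isomerase, 4 from phosphoglycerate kinase to pyruvate kinase, 2 lactate dehydrogenase genes, 4 of the pyruvate dehydrogenase complex, 12 of the mitochondrial cycle, 3 for cytosolic counterparts of cycle enzymes and 4 of gluconeogenesis. Their median transcript lengths ran from 1068.5 nt in Idh2 to 4152.5 nt in Hk2.

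Transcripts of colon epithelial cells, released with EDTA, were measured by RNA-seq in C57/BL6 mice. Control animals carried Tfeb flox/flox without Cre, and Tfeb ΔIEC animals carried the same floxed alleles together with villin-Cre, which removes the transcription factor TFEB from the epithelium of the whole intestine and not from other cells. Each genotype had 2 animals on Day 0, before treatment, 2 on Day 4 at the end of dextran sulfate sodium (DSS, an agent that injures the colon epithelium; 2.5% in the labels, while the study's methods give another concentration), and 2 on Day 11 after recovery. The labels give ages of 10 and 12 weeks on Day 0, 12 weeks on Day 4 and 10 weeks on Day 11, and 12 animals in all.

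Each genotype has 1 value per gene and day, the authors' pooled value for the 2 animals, in FPKM (fragments mapped per kilobase of a transcript, scaled to the size of the library). No value has an SD, no difference has a replicate check, and no p-value is given here, as the authors' p and q values were not used. A gene was counted as higher or lower in Tfeb ΔIEC animals where log2((Tfeb ΔIEC + 1)/(Tfeb flox/flox + 1)) was at least 1 or at most -1, a 2-fold difference that is understated for genes with low values. Only genes at 1 FPKM or more in either genotype were read in this way. Folds named as such below are plain ratios of FPKM. Values of different days come from tables scaled separately.

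Tfeb itself was at 0.901 FPKM in control and 0.185 in Tfeb ΔIEC animals on Day 0. On Day 4 it was at 1.08 against a value listed at 0, and on Day 11 at 1.18 against a value listed at 0. Epcam, Krt8, Krt18 and Krt19, which mark epithelium, had at least 337 FPKM in every group, and the colonocyte carbonic anhydrase Car1 at least 22335. Other epithelial markers were unequal on Day 4, at 24.5 FPKM in control and 164 in Tfeb ΔIEC animals for Cdh1, at 30.6 and 224 for Vil1, at 101 and 931 for Krt20, and at 25.9 and 6.98 for Cdx1. The 7 stromal markers summed to at most 3.29 FPKM and the 11 immune markers to at most 9.75, with Cd68, S100a9 and Col1a2 listed at 0 in every group. Markers of the small intestine were mixed, with Apoa4 and Lct at 0 throughout and Fabp2 between 799 and 1882 FPKM. Of 6 read on Day 0, 3 were lower in Tfeb ΔIEC animals and 1 higher, beside 16.1% and 13.5% of all genes. Those were Fabp6 at 18.8 and 1.74, Fabp2 at 1882 and 891, Apoa1 at 17.7 and 0, and Slc5a1 at 5.48 and 18.7. Of 7 read on Day 4, 2 were lower and 3 higher, beside 26.1% and 25.6%. Among the higher, Alpi and Apob passed the filter only through Tfeb ΔIEC animals. The sum of FPKM was similar between genotypes on Day 0, 975316 and 973878, and unequal on Day 4, with 1464720 in control and 820344 in Tfeb ΔIEC animals. From the spacing of the lowest values, 1 fragment of a 1 kb transcript was worth an estimated 0.436 and 0.412 FPKM on Day 0, and 0.591 and 0.350 FPKM on Day 4, in control and Tfeb ΔIEC animals respectively.

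The enzymes' values on Days 4 and 11 were nearly alike within a genotype, although the labels give separate animals. Among the 37 enzymes above 0 on both days, the Day 11 value was 0.863 to 1.13 times the Day 4 value in control animals and 0.690 to 1.22 times in Tfeb ΔIEC animals. Pfkm, Aldoc, Ldhb and Fbp1 had identical values on both days in control animals. Over all genes above 0 on both days, 14.3% and 10.2% were identical in the 2 genotypes. The median ratio was 1.0 in each, while ratios of single genes ran from 2.2e-05 to 57103 in control and from 1.6e-04 to 21261 in Tfeb ΔIEC animals. Day 11 is therefore given as values and not as a repeat of Day 4.

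Start-site windows were available from RefSeq (GRCm38.p6) for 37 of the 38 genes, all but Idh3a. TFEB is known to bind E-boxes, whose core is CACGTG. Searched on both strands over the 250 bases before each start site, this core was present in 4 of the 37 genes, Ldha, Ogdh, Fbp2 and Pfkm, against 6.86% of all gene symbols in the table. The longer TCACGTGA, close to the lysosomal gene element read by TFEB, was in 0 of 37, against 0.907% of all symbols. The hypoxia core ACGTG, which lies within CACGTG, was in 12 of 37, against 18.5% of all symbols. GCGCATGC, bound by the mitochondrial gene activator NRF1, was in 2 of 37, against 2.56%, and TCAAGGTCA, bound by estrogen-related receptors, in 0 of 37, against 0.422%. The windows with the E-box core and, for contrast, those of Idh1 and Pdha1, which hold no match to these motifs and belong to the genes with the widest gaps between genotypes below, are shown as 60 bases 5′ to 3′ on the gene's strand, with the core in capitals.
Ldha, chr7:46845729-46845788, + strand, core 48 bases before a start site: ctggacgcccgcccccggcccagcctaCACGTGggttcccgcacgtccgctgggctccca
Ogdh, chr11:6292033-6292092, + strand, core 110 bases before a start site: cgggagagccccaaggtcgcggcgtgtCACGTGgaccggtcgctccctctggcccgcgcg
Fbp2, chr13:62858410-62858469, - strand, core 42 bases before the start site: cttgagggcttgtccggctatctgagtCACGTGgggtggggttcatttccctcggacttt
Pfkm, chr15:98092426-98092485, + strand, core 136 bases before a start site: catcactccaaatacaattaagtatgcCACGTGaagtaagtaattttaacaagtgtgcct
Idh1, chr1:65179143-65179202, - strand, no core: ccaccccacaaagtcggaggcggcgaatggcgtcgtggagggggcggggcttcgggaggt
Pdha1, chrX:160138431-160138490, - strand, no core: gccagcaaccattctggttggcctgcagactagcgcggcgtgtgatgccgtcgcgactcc
A match is a description of these letters and not a bound site. Ogdh has 6 annotated starts, Pfkm 4, and Ldha and Idh1 2 each, so these genes had more sequence searched than those with a single start. The stretches shown for Idh1, Ldha and Ogdh lie inside the annotated spans of these genes, before an internal start and not before the outer end.

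On Day 0 the enzymes differed little between genotypes. Of 37 enzymes read, 3 were higher in Tfeb ΔIEC animals, Hk1, Pdha1 and Ldhb, and 1 was lower, Hk2. Over all 9993 genes read that day, 13.5% were higher and 16.1% lower. The median log2 fold change of the enzymes was 0.35 and that of all genes 0.06. The 16 genes of the pyruvate dehydrogenase complex and the mitochondrial cycle had a median of 0.56, and the 15 of glycolysis and lactate dehydrogenase, of which 14 were read, had -0.12.

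On Day 4 the gap was wide and ran 1 way among the enzymes that were counted. Of 35 enzymes read, 17 were higher in Tfeb ΔIEC animals and 0 lower, while over all 9371 genes 25.6% were higher and 26.1% lower. The median log2 fold change was 0.9995 in the enzymes and 0.06 in all genes, and 31 of the 35 had a positive value. With each group divided by the sum of its values, 31 enzymes were higher, all but Hk2, Suclg1, Fh1 and Pck2, and 0 lower, beside 41.6% and 16.1% of all genes. At 4-fold, 11 enzymes were higher, against 7.36% of all genes. Pfkm, Ldhb and Fbp1 did not reach 1 FPKM in either genotype on that day. On Day 11, 19 of 35 were higher and 0 lower, with 26.1% higher and 25.7% lower over 9365 genes.

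**Figure D1:**
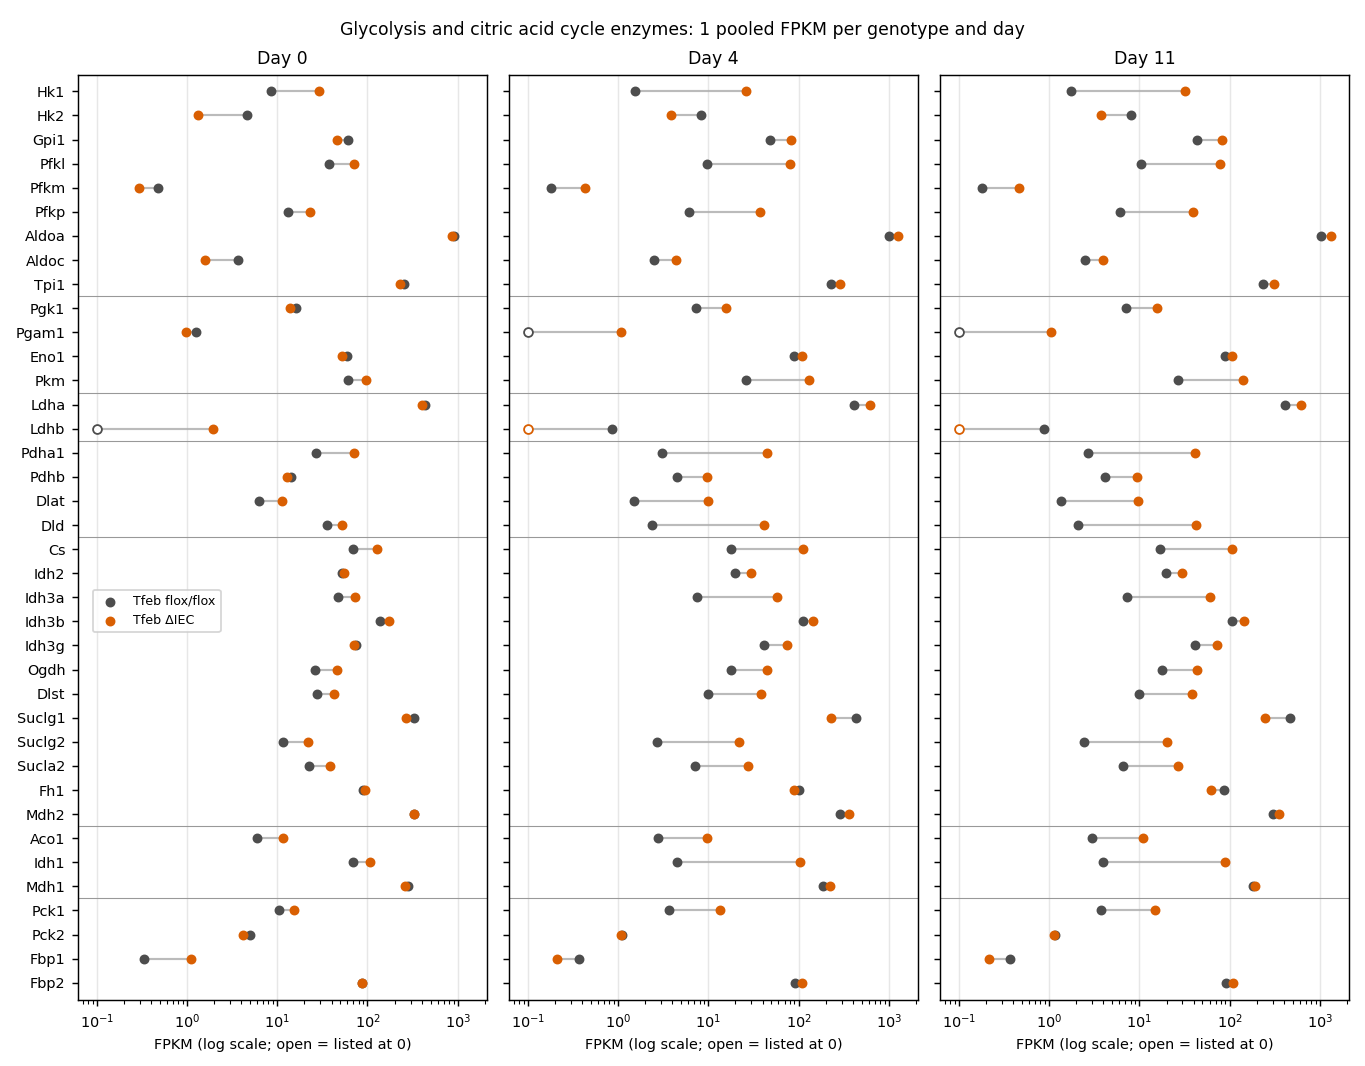
Each row is an enzyme, grouped by its place in the pathway from hexokinase at the top to gluconeogenesis at the bottom, and the horizontal axis is the pooled FPKM on a log scale, for Tfeb flox/flox (grey) and Tfeb ΔIEC (orange) on Days 0, 4 and 11. Open circles at the left edge are values listed at 0. On Day 4 the orange points lie to the right for most rows and the gaps are widest for Idh1, Dld, Pdha1 and Hk1.

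Glycolysis begins with hexokinase, which traps glucose in the cell as glucose 6-phosphate, and its isozymes differed in direction on Day 0. Hk1, on chr10:62268855-62379908 of mm10, was at 8.49 FPKM in control and 29.2 in Tfeb ΔIEC animals on Day 0, at 1.53 and 26.2 on Day 4, and at 1.73 and 32.0 on Day 11. Hk2, the inducible isozyme, was at 4.64 and 1.31 on Day 0, at 8.26 and 3.85 on Day 4, and at 8.13 and 3.75 on Day 11. Hk1 was thus 3.44-fold higher in Tfeb ΔIEC animals on Day 0 and 17.1-fold higher on Day 4, and Hk2 was 3.54-fold and 2.14-fold lower. Hk2 was counted as lower on Day 0 only, and not there with a pseudocount of 5, where it was at -0.61. Its Day 4 log2 fold change of -0.93 was -0.23 when each group was divided by its sum, -1.08 with a pseudocount of 0.1 and -1.54 when the running median of all genes over transcript length, here called the length trend, was subtracted. The Day 4 value of Hk1 in control animals rests on an estimated 10 fragments. Per length, Hk1 stood 1.83-fold above Hk2 in control animals on Day 0 and Hk2 5.39-fold above Hk1 on Day 4. In Tfeb ΔIEC animals Hk1 stood above Hk2 on both days, by 22.3-fold and 6.80-fold.

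Phosphofructokinase catalyses the committed step. Pfkl, the liver-type subunit, was at 37.9 FPKM in control and 70.9 in Tfeb ΔIEC animals on Day 0, at 9.56 and 80.3 on Day 4, and at 10.4 and 78.3 on Day 11. Pfkp, the platelet type, was at 13.2 and 23.3, then 6.07 and 37.7, then 6.03 and 38.8. The Day 4 difference was 8.40-fold for Pfkl and 6.22-fold for Pfkp. Pfkm, the muscle type, was at 0.476 and 0.292, then 0.179 and 0.433, then 0.179 and 0.464, an estimated 1 to 4 fragments. Pfkl exceeded Pfkp in all 6 groups, by 1.58-fold to 3.04-fold per length.

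The middle of glycolysis showed much smaller gaps in the deposited values. Gpi1, which isomerises glucose 6-phosphate, was at 61.2 and 46.2 FPKM on Day 0, at 48.2 and 83.0 on Day 4, and at 43.6 and 82.9 on Day 11, below 2-fold in either direction. Aldoa, the main aldolase, was at 909 and 859 FPKM in control and Tfeb ΔIEC animals on Day 0, at 1017 and 1251 on Day 4, and at 1038 and 1323 on Day 11. It was the most abundant of the 38 in every group. Its isozyme Aldoc, which reached only 4.43 FPKM, was at 3.69 and 1.58 on Day 0, at 2.53 and 4.43 on Day 4, and at 2.53 and 4.01 on Day 11. Tpi1, which interconverts the trioses, lay between 229 and 309 FPKM in all 6 groups, with a log2 fold change of 0.33 on Day 4. With each group divided by its sum, the Day 4 log2 fold changes were 1.59 for Gpi1, 1.13 for Aldoa, 1.27 for Aldoc and 1.16 for Tpi1.

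In the payoff phase, pyruvate kinase stood out. Pkm, which makes pyruvate and ATP, was at 60.9 FPKM in control and 95.6 in Tfeb ΔIEC animals on Day 0, at 26.4 and 132 on Day 4, and at 26.99 and 141 on Day 11, a 5.01-fold difference on Day 4. Pgk1, phosphoglycerate kinase, was at 16.2 and 13.9 on Day 0, at 7.33 and 15.7 on Day 4, and at 7.17 and 15.5 on Day 11. Its log2 fold change was 0.9995 on Day 4, just below the threshold, and 1.02 on Day 11, just above it. Pgam1, phosphoglycerate mutase, was at 1.27 and 0.967 on Day 0 and at about 1.1 FPKM in Tfeb ΔIEC animals against a value listed at 0 on Days 4 and 11, an estimated 5 fragments. With only enzymes above 0 in all 6 groups, 16 of 34 were higher on Day 4, beside 25.6% of all genes. Eno1, enolase, was at 58.7 and 52.7, then 88.6 and 111, then 88.5 and 106. The share of 50-base stretches found in no other gene was 46.1% for Pgk1, 63.8% for Pgam1, 74.0% for Eno1 and 74.2% for Pkm, so that reads of these genes can be shared with copies elsewhere. How such reads were counted is not given in the sources used here. Exons of Gpi1, Pfkm, Pfkp, Aldoa, Tpi1, Pkm, Pdha1 and Idh3b overlap those of a neighbouring gene, on the same strand for Pkm and on the other strand for the rest. The libraries do not mark strand, so reads of the overlaps on the other strand cannot be told apart. For Pkm, strand would not separate them.

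Lactate dehydrogenase was almost wholly of the A type. Ldha was at 430 and 400.2 FPKM in control and Tfeb ΔIEC animals on Day 0, at 413 and 615 on Day 4, and at 416 and 612 on Day 11. Ldhb was listed at 0 in control animals on Day 0, against 1.96 in Tfeb ΔIEC animals, and the other way round on Days 4 and 11, at 0.868 against 0. Those values amount to an estimated 2 to 6 fragments. Its count as higher on Day 0 therefore compares a handful of fragments with none.

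The pyruvate dehydrogenase complex joins glycolysis to the cycle, and its 4 genes had the highest median of any role on Day 4, a log2 fold change of 2.81. Dld, the lipoamide dehydrogenase shared with the oxoglutarate complex, on chr12:31331277-31351453, was at 35.3 FPKM in control and 51.6 in Tfeb ΔIEC animals on Day 0, at 2.37 and 41.6 on Day 4, and at 2.11 and 42.3 on Day 11. Pdha1, the catalytic E1 alpha subunit, on chrX:160122209-160138413, was at 26.6 and 70.8, then 3.09 and 44.3, then 2.72 and 41.2. Dlat, the acetyltransferase core, was at 6.36 and 11.4, then 1.49 and 10.0, then 1.36 and 9.63. On Day 4, Dld was 17.6-fold, Pdha1 14.4-fold and Dlat 6.71-fold higher in Tfeb ΔIEC animals, and the control values rest on an estimated 10 fragments for Dld and Dlat and 15 for Pdha1. Pdhb, the E1 beta partner of Pdha1, was closer between genotypes. It was at 14.4 and 12.9 on Day 0, at 4.46 and 9.70 on Day 4, and at 4.18 and 9.47 on Day 11, with log2 fold changes of -0.14, 0.97 and 1.02. Per length, Pdha1 stood 1.85-fold above Pdhb in control animals on Day 0 and 1.45-fold below it on Day 4, and in Tfeb ΔIEC animals 5.47-fold and 4.57-fold above it.

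Entry into the cycle followed the same direction. Cs, citrate synthase, was at 69.4 FPKM in control and 128 in Tfeb ΔIEC animals on Day 0, at 18.0 and 112 on Day 4, and at 16.9 and 106 on Day 11, or 6.19-fold higher on Day 4. Among the NAD-dependent isocitrate dehydrogenase subunits, catalytic Idh3a was at 47.5 and 72.5, then 7.59 and 58.2, then 7.25 and 59.97, a 7.67-fold difference on Day 4. Its partners differed less. Idh3b was at 137 and 175, then 113 and 146, then 107 and 144, and Idh3g at 75.1 and 70.7, then 41.1 and 73.9, then 41.6 and 73.2, with Day 4 log2 fold changes of 0.37 and 0.83. The ratio of Idh3b to Idh3a per length lay between 2.41 and 2.89 in 4 groups and was 14.9 and 14.8 in control animals on Days 4 and 11.

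Cytosolic isocitrate dehydrogenase showed the widest gap of all 38 genes on Day 4. Idh1, a source of cytosolic NADPH, on chr1:65158616-65186500, was at 69.0 FPKM in control and 106 in Tfeb ΔIEC animals on Day 0, at 4.54 and 105 on Day 4, and at 3.98 and 90.1 on Day 11. That was 1.53-fold on Day 0, 23.0-fold on Day 4 and 22.6-fold on Day 11, with an estimated 18 fragments behind the control value of Day 4. Idh2, its mitochondrial NADP-dependent counterpart, was at 52.0 and 55.6, then 20.01 and 30.1, then 19.7 and 29.4, and did not reach 2-fold as deposited. Its Day 4 log2 fold change of 0.56 became 1.37 with each group divided by its sum and 1.08 with the length trend subtracted. Idh1 exceeded Idh2 per length by 1.33-fold in control and 1.90-fold in Tfeb ΔIEC animals on Day 0. On Day 4 Idh2 exceeded Idh1 by 4.40-fold in the former and Idh1 exceeded Idh2 by 3.48-fold in the latter.

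Of the oxoglutarate dehydrogenase complex, Ogdh, the E1 enzyme, was at 26.3 FPKM in control and 45.5 in Tfeb ΔIEC animals on Day 0, at 18.0 and 44.6 on Day 4, and at 17.6 and 43.4 on Day 11. Dlst, its succinyltransferase core, was at 27.8 and 42.2, then 9.95 and 38.1, then 9.91 and 38.1. The Day 4 difference was 2.48-fold for Ogdh and 3.83-fold for Dlst, and the log2 fold change of Ogdh fell short of 2-fold, at 0.60, with the length trend subtracted. Aco1, which doubles as cytosolic aconitase and iron regulatory protein, was at 6.01 and 11.5, then 2.75 and 9.59, then 3.01 and 11.01, or 3.49-fold higher on Day 4. Its log2 fold change of 1.50 was 0.91 with a pseudocount of 5 and 0.83 with the length trend subtracted.

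Succinate-CoA ligase pairs a shared alpha subunit with an ADP-type or a GTP-type beta subunit, and only the beta subunits were counted as higher on Day 4. Suclg1, the alpha subunit, was at 326 FPKM in control and 266 in Tfeb ΔIEC animals on Day 0, at 437 and 229 on Day 4, and at 471 and 248 on Day 11, with log2 fold changes of -0.29, -0.93 and -0.92 that did not reach 2-fold. With each group divided by its sum, its Day 4 value was -0.10, and with the length trend subtracted its Day 11 value was -1.02. Suclg2, the GTP-type beta subunit, was at 11.5 and 21.8, then 2.70 and 21.9, then 2.42 and 20.03. Sucla2, the ADP-type beta subunit, was at 22.6 and 38.3, then 7.13 and 27.6, then 6.55 and 27.1. On Day 4, Suclg2 was 8.12-fold and Sucla2 3.87-fold higher in Tfeb ΔIEC animals. Suclg1 was 28.4-fold above Suclg2 per length in control animals on Day 0 and 162-fold above it on Day 4, against 12.2-fold and 10.4-fold in Tfeb ΔIEC animals.

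The last steps of the cycle differed little in the deposited values. Fh1, fumarase, was at 88.5 and 94.8 FPKM on Day 0, at 101 and 89.9 on Day 4 and at 87.4 and 62.0 on Day 11, and the direction on Days 4 and 11 turned when each group was divided by its sum. With the length trend subtracted, Fh1 was at -1.23 on Day 11 and past 2-fold. Mdh2, mitochondrial malate dehydrogenase, lay between 289 and 362 FPKM and Mdh1, its cytosolic counterpart, between 181 and 283, and the largest log2 fold change of either on any day was 0.32. With each group divided by its sum, those of Day 4 became 1.15 for Mdh2 and 1.08 for Mdh1, both past 2-fold, and with the length trend subtracted that of Mdh1 was -0.26.

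Gluconeogenic enzymes were mostly unequal in level and similar between genotypes. Pck1, the cytosolic phosphoenolpyruvate carboxykinase, was the exception, at 10.4 FPKM in control and 15.3 in Tfeb ΔIEC animals on Day 0, at 3.68 and 13.5 on Day 4, and at 3.79 and 15.0 on Day 11, a 3.66-fold difference on Day 4. Its Day 4 log2 fold change of 1.63 was 0.91 with the length trend subtracted. Its mitochondrial counterpart Pck2 was at 5.02 and 4.20 on Day 0, at 1.12 and 1.08 on Day 4, and at 1.15 and 1.14 on Day 11. Fbp2, a fructose bisphosphatase, lay between 87.7 and 109 FPKM in all groups, with a Day 4 log2 fold change of 0.23 that was 1.06 after division by the sums, and Fbp1 between 0.212 and 1.10, an estimated 1 to 4 fragments.

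**Figure D2:**
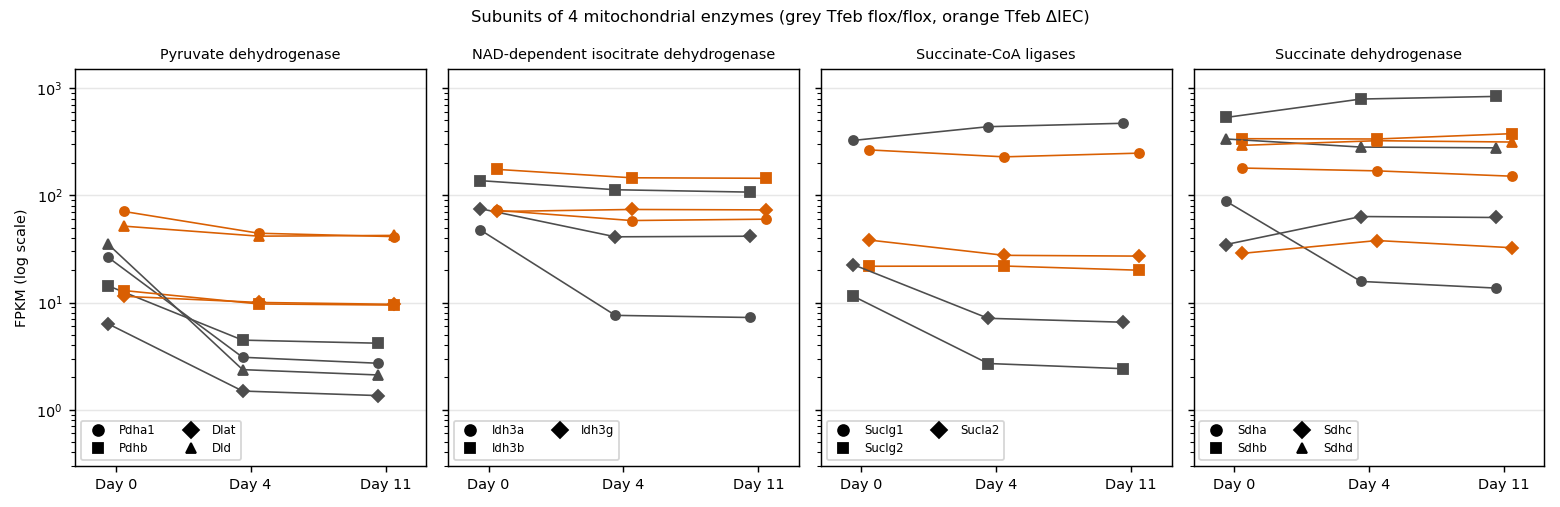
Lines join the pooled FPKM (vertical axis, log scale) of each subunit on Days 0, 4 and 11, in Tfeb flox/flox (grey) and Tfeb ΔIEC (orange) animals, with 1 marker shape per subunit. In pyruvate dehydrogenase all 4 grey lines lie lower on Day 4 than on Day 0, as do those of Idh3a, Suclg2, Sucla2 and Sdha, while the grey lines of Suclg1 and Sdhb lie higher.

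The Day 4 gap of the pyruvate dehydrogenase complex and the mitochondrial cycle lay mainly in the control values. Between Day 0 and Day 4, 19 of 35 enzymes were lower by at least 2-fold in control animals and 0 were higher, while over 9617 genes 25.7% were lower and 17.5% higher. In Tfeb ΔIEC animals, 2 of 37 were lower, Ldhb and Pck2, and 3 were higher, Hk2, Aldoc and Eno1, while over 9617 genes 15.6% were lower and 9.26% higher. The median log2 change of the enzymes was -1.05 in control and -0.07 in Tfeb ΔIEC animals, against -0.20 for all genes in each. With the length trend subtracted, the medians of the enzymes were -0.67 and 0.11. These comparisons share their Day 4 values with the comparison of genotypes and cross tables that were scaled separately. In control animals Idh1 was 15.2-fold, Dld 14.9-fold and Pdha1 8.62-fold lower on Day 4 than on Day 0. In Tfeb ΔIEC animals the same genes were 1.01-fold, 1.24-fold and 1.60-fold lower. Of glycolysis and lactate dehydrogenase, 6 of 13 enzymes were lower and 0 higher in control animals, and 1 of 14 lower and 3 higher in Tfeb ΔIEC animals, so that most were counted in neither direction. Their median log2 change was -0.41 in control and 0.50 in Tfeb ΔIEC animals, and pyruvate dehydrogenase with the mitochondrial cycle had -1.45 and -0.21.

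**Figure D3:**
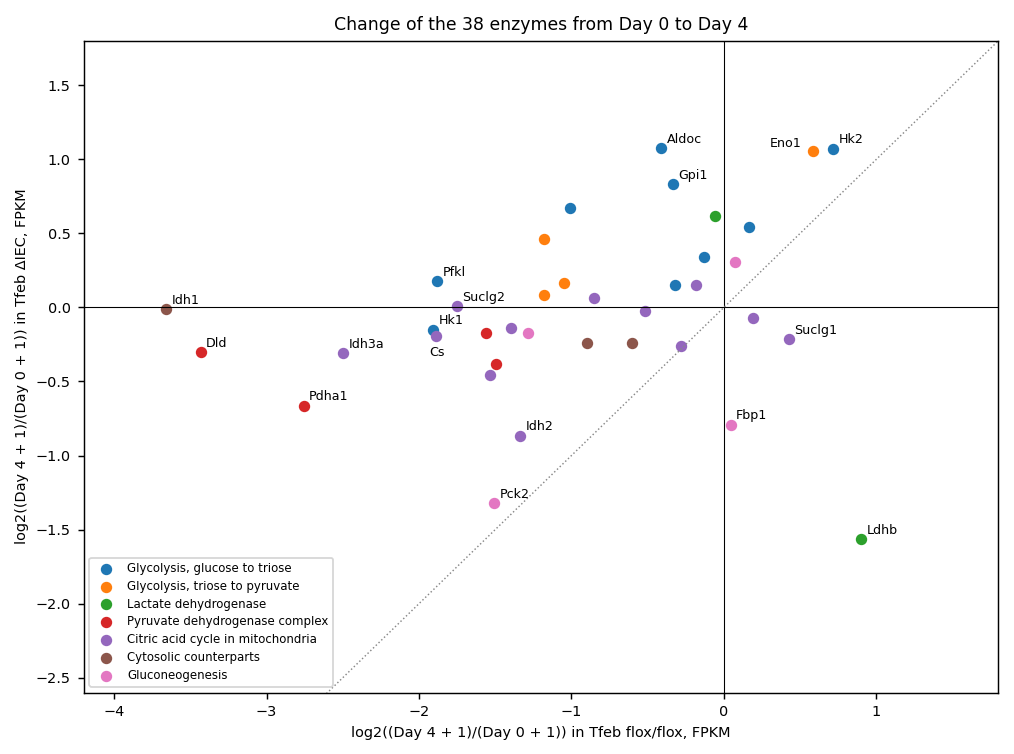
Each point is 1 of the 38 enzymes, coloured by its place in the pathway, with its log2 change from Day 0 to Day 4 in Tfeb flox/flox animals on the horizontal axis and in Tfeb ΔIEC animals on the vertical axis. The dotted line marks equal change. Idh1, Dld, Pdha1 and Idh3a lie far to the left, between -3.66 and -2.50, and between -0.66 and -0.01 on the vertical axis, while Ldhb at the lower right rests on values listed at 0.

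Transcript length moved with the difference. Over all genes read on Day 4, the median log2 fold change was -1.28 for genes of 200 to 1000 nt, and for those of 1500 to 2000 nt and 2500 to 3500 nt it was 0.24 and 0.67. Across the 35 enzymes, Spearman's rho between length and log2 fold change was 0.41, and over 9353 genes it was 0.38, with genes that share libraries and are not independent. The 5 enzymes under 1500 nt, Idh2, Tpi1, Idh3g, Fbp2 and Mdh2, had 0 called higher and a median of 0.33, where 16.9% of all genes of 1000 to 1500 nt were higher and their median was -0.24. Of the 24 enzymes of 1500 to 3500 nt, 12 were higher, against 32.6% of all genes of that length, with medians of 0.57 for the 9 enzymes below 2000 nt, 2.28 for the 5 of 2000 to 2500 nt and 2.15 for the 10 of 2500 to 3500 nt. Of the 6 longer enzymes, Hk1, Hk2, Aco1, Ogdh, Pfkl and Dlat, 5 were higher, with a median of 1.82, against 34.7% of all genes of 3500 to 5000 nt. After the running median over length was subtracted, 14 of 35 enzymes were higher and 1, Hk2, was lower, with a median of 0.83, beside 20.3% of all genes higher and 20.7% lower. The part of length in these differences was not tested beyond that.

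**Figure D4:**
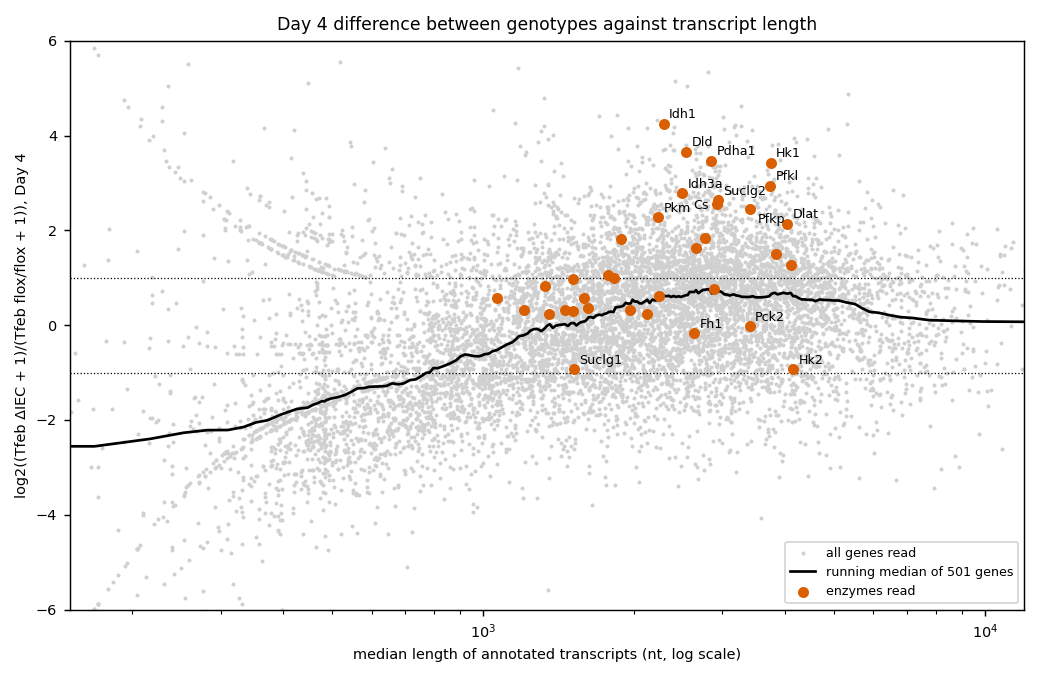
The vertical axis is the Day 4 log2 fold change of Tfeb ΔIEC against Tfeb flox/flox and the horizontal axis the median transcript length on a log scale, for all genes read (small grey points), their running median (black line) and the enzymes (orange). Dotted lines mark 2-fold, and 89 of 9353 genes fall outside the axes. Most enzymes longer than 2000 nt lie above the line and Hk2, Fh1, Pck2 and Mdh1 below it.

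Cell type markers were unequal between genotypes on Days 0 and 4. Over all genes read, 13.5% were higher and 16.1% lower on Day 0, and 25.6% were higher and 26.1% lower on Day 4. The 6 goblet cell markers summed on Day 4 to 78495 FPKM in control and 16332 in Tfeb ΔIEC animals, with 4 lower and 2 higher in the latter. On Day 0 they summed to 22823 and 15018, with 2 lower and 1 higher, and Fcgbp was at 484 against a value listed at 0. Of the 5 colonocyte markers, 3 were higher and 0 lower in Tfeb ΔIEC animals on Day 4, among them Slc26a3 at 33.3 and 271, and Car1 was at 24745 and 26614. On Day 0 the counts were 0 higher and 2 lower, Aqp8 at 198 and 30.1 and Car4 at 269 and 91.9. Of the 9 epithelial markers, Cdh1, Vil1 and Krt20 were higher and Cdx1 lower on Day 4, so that the 3 higher were close to the share of all genes. On Day 0 Cdh1 alone was counted, as higher, at 38.5 and 109 FPKM. In pooled bulk samples, fewer cells of a type and less RNA per cell cannot be told apart, and the part of cell composition in the result was not tested.

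Other enzymes of these routes gave a mixed picture. Of 19 further genes, 11 were read on Day 4, with 4 higher and 1 lower, beside 25.6% and 26.1% of all genes. Among the higher, Hkdc1, at 0.312 and 2.05, and Ldhd, at 0.227 and 2.02, passed the filter only through Tfeb ΔIEC animals. Gapdh, the glycolytic dehydrogenase used widely as a reference gene, was at 113 FPKM in control and 102 in Tfeb ΔIEC animals on Day 0, at 132 and 116 on Day 4, and at 134 and 108 on Day 11. Succinate dehydrogenase, which sits in the respiratory chain as well, was split between its subunits. Sdha, the flavoprotein with a transcript of 2900 nt, was at 88.3 and 180 on Day 0, at 15.7 and 169 on Day 4, and at 13.6 and 151 on Day 11. Sdhb, the iron-sulfur subunit with a transcript of 1142 nt, was at 533 and 338, then 792 and 336, then 838 and 377. Sdhc was at 34.8 and 28.8, then 63.5 and 37.9, then 62.2 and 32.5, and Sdhd at 336 and 293, then 282 and 324, then 278 and 315. On Day 4 Sdha was 10.8-fold higher and Sdhb 2.36-fold lower in Tfeb ΔIEC animals, and with each group divided by its sum the log2 fold change of Sdhb was -0.40 and no longer reached 2-fold.

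Carriers, side branches and regulators were read from the same tables. Of 12 carriers, 9 were read on Day 4, with 3 higher and 1 lower, where 25.6% of all genes were higher and 26.1% lower, and on Day 0 4 of 9 were already higher, against 13.5% of all genes. Of those 4, Slc2a5, at 0.140 and 1.33, passed the filter only through Tfeb ΔIEC animals. The lactate and butyrate transporter Slc16a1 was at 7.85 FPKM in control and 26.5 in Tfeb ΔIEC animals on Day 0, at 1.27 and 33.6 on Day 4, and at 1.05 and 31.4 on Day 11. The glucose transporter Slc2a1 was at 3.03 and 7.89 on Day 0 and at 2.93 and 17.2 on Day 4. Mpc2, of the mitochondrial pyruvate carrier, went the other way, at 86.8 and 52.4 on Day 0 and at 165 and 55.4 on Day 4, a log2 fold change of -1.56 that was -0.73 with each group divided by its sum. Of 7 pentose phosphate genes, 6 were read, with 4 higher and 1 lower on Day 4, the lower being Pgls, the lactonase with a transcript of 977.5 nt, at 221 and 34.2. Among the higher, Rpe, at 0.888 and 5.21, passed the filter only through Tfeb ΔIEC animals. Of 12 genes of anaplerosis and export, 9 were read, with 7 higher and 0 lower. Among the higher, Got2, at 0.202 and 2.51, and Gpt2, at 0.329 and 2.95, passed the filter only through Tfeb ΔIEC animals. Of the 7 the malic enzyme Me2, at 11.3 and 50.7, alone reached 4-fold on the log2 scale with its pseudocount. Of 12 regulators of flux, such as the pyruvate dehydrogenase kinases, 5 were read on Day 4, with 0 higher and 0 lower. On Day 0 1 of 6 was lower, Pdk1, where 16.1% of all genes were, and on Day 11 2 of 5 were higher, Pdk3 and Pdpr, where 26.1% were. Pdpr, at 0.537 and 2.49 on Day 11, passed the filter only through Tfeb ΔIEC animals. Pdk3, a pyruvate dehydrogenase kinase, was at 3.91 and 7.70 on Day 4 and at 1.34 and 7.81 on Day 11. Of 11 hypoxia and growth regulators, 9 were read on Day 4, with 3 higher and 0 lower, close to the 25.6% of all genes that were higher. On Day 0 4 of 10 were higher, against 13.5%. Among them was Hif1a, the oxygen-responsive activator of glycolytic genes, at 4.58 and 13.3 on Day 0 and at 4.90 and 19.7 on Day 4. Vhl, at 1.05 and 5.89 then 0.943 and 4.58, and Arnt, at 0.641 and 2.47 then 0.857 and 3.70, were higher on both days too. Both passed the Day 4 filter, and Arnt that of Day 0, only through Tfeb ΔIEC animals. Myc, with a Day 4 log2 fold change of -0.81, was counted in neither direction. The 4 proliferation markers summed to 12.1 and 19.8 FPKM on Day 0 and to 5.89 and 4.67 on Day 4.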

How the data were processed

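RNA-seq tables of mouse colon epithelium were used for 6 groups of 2 animals, with genotype and day taken from the sample titles and labels. The authors made full-length cDNA by a SmartSeq2 variant, which does not mark strand, sequenced it on a MiSeq, mapped it to mm10 with TopHat2 (2.0.14 in the submitters' processing notes) and compared genotypes within each day with Cuffdiff (2.1.1). Per the file headers, the 3 deposited tables hold 1 pooled FPKM value per gene and genotype, scaled between genotypes of 1 day only. Their columns of log2 fold change, test statistic, p and q were not used. Numbers of reads are not given. The worth of 1 fragment was estimated as the lowest cluster of FPKM times length over genes above 2500 nt with a single transcript, so estimated fragments are approximate, more so in genes with several transcripts.

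Log2 fold changes used a pseudocount of 1 FPKM, a filter of 1 FPKM in either group and a threshold of 2-fold. Lengths, positions (counted from 1) and exon overlaps are those of GENCODE M21 basic transcripts, on the assembly of mm10, and 47218 of 47632 genes matched. Exons of 8 of the 38 enzymes overlap those of another gene. Shares of unique sequence count 50-base stretches over the GENCODE transcripts. Alternatives were pseudocounts of 0.1 and 5, other filters, division by the group's sum, centring, subtraction of a running median of 501 genes over length, and a 4-fold threshold. Restriction to 95% unique sequence and to genes above 0 in all groups was chosen after seeing the data. The enzymes and lists were chosen with earlier results of these data known. Every enzyme is named, with all 6 values where it was called or is a partner of a called enzyme. Other genes of the pathway are named where called at 4-fold (at most 4 per list), with Gapdh, the Sdh subunits and Tfeb always. Mpc2, Hif1a, Vhl, Arnt, Myc, Pdk1, Pdk3, Pdpr, Hkdc1, Ldhd, Slc2a5, Rpe, Got2, Gpt2 and the single cell type markers were named after their values were seen. Some genes of the lists are not reported here. The scripts, tested on simulated data, used pandas 2.3.3, scipy 1.17.1, numpy 2.4.6 and, for plots, matplotlib 3.10.9, all under Python 3.11.15.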

Additional observations from a re-analysis of the deposited data

How the results depend on the processing

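No paired analysis was possible because the tables hold 1 pooled value per genotype and day, and for the same reason no replicate could be left out. Of the 17 enzymes counted as higher on Day 4, 13 kept that count under every alternative at 2-fold in which they were read. They were Cs, Dlat, Dld, Dlst, Hk1, Idh1, Idh3a, Pdha1, Pfkl, Pfkp, Pkm, Sucla2 and Suclg2. The other filters and the restrictions only choose which genes are read and cannot change a fold change. A pseudocount of 0.1 and division by the sums only raise these values. That leaves a pseudocount of 5, centring and the length trend as alternatives that could remove the count. The same 13 kept it on Day 11, whose values are nearly those of Day 4 and are not a repeat. Aco1, Ogdh, Pck1 and Pgam1 lost the count on Day 4 under at least 1 alternative, and Pgk1 and Pdhb crossed the threshold with small shifts. At 4-fold, 11 of 35 enzymes were higher on Days 4 and 11, beside 7.36% and 7.46% of all genes, and on Day 0 the counts were 0 higher and 0 lower, near the 2.09% and 3.35% of all genes. Division by the sum of each group moved the median of all genes on Day 4 from 0.06 to 0.68 and on Day 11 from 0.08 to 0.70. It raised the enzymes higher to 31 on Day 4 and 30 on Day 11, and all genes higher to 41.6% with 16.1% lower on Day 4 and 42.1% with 15.8% lower on Day 11. Relative to all genes, the enzymes' Day 4 median was then 1.01, against 0.94 as deposited. Under the same division the median change from Day 0 to Day 4 was -1.53 in control and 0.17 in Tfeb ΔIEC animals. With the length trend subtracted it was -0.67 and 0.11, and with a pseudocount of 5 it was -0.72 and -0.07, against -1.05 and -0.07 as deposited. The sign of Pck2 and Fh1 turned positive on Day 4 under that division, and that of Eno1 and Mdh1 turned negative once the length trend was subtracted. Counts of lower enzymes were small and moved by 1 to 3 genes. On Day 0 they were 2 with a pseudocount of 0.1 (20.5% of all genes) or the length trend subtracted (11.5%), and 0 with a pseudocount of 5 (6.24%) or a filter at 10 FPKM (20.9%). On Day 4 they were 1 with a pseudocount of 0.1 (30.7%) or the length trend subtracted (20.7%), and on Day 11 they were 1 with a pseudocount of 0.1 (30.4%) or centring (26.97%) and 3 of 35 with the length trend subtracted (21.1%). With only enzymes of at least 95% unique sequence, 1 of 25 was higher on Day 0, beside 13.5% of all genes, and 12 of 24 on Day 11, beside 26.1%, where fewer genes enter by construction. Over the 10 alternatives the median between genotypes ran from 0.19 to 0.52 on Day 0, from 0.74 to 1.70 on Day 4 and from 0.75 to 1.73 on Day 11. Low fragment numbers limit Pfkm and Fbp1, with at most an estimated 4 in any group, and the counts of Pgam1 and Ldhb as higher, which set an estimated 5 and 6 fragments against values listed at 0.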
